A study of Mus musculus with 8 samples.

Results

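The 4 mature miRNAs of the miR-132 and miR-212 cluster were followed among RISC-bound small RNAs of mouse brain. All reads whose name was exactly mmu-miR-132-3p, mmu-miR-132-5p, mmu-miR-212-3p or mmu-miR-212-5p were taken, and their levels were summed per name. The 4 names are among 895 miRNA names in the data, and they cover 481 of 47204 distinct read sequences. Of these, 298 carried the name miR-132-3p, 77 miR-132-5p, 98 miR-212-3p and 8 miR-212-5p.

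The samples are cortex plus hippocampus of single female mice with the 5XFAD transgene, which models amyloid deposition and is driven by the neuronal Thy1 promoter. There were 4 libraries from 5XFADtg mice with 1 intact copy of Rubicon (het) and 4 from 5XFADtg mice with none (ko). Rubicon, encoded by Rubcn, restrains autophagy. A GW182 peptide was used to capture Argonaute proteins, the RISC components that hold the guide strand, and the small RNAs bound to them were sequenced. All mice carried the transgene and lacked at least 1 copy of Rubicon, so neither transgene-free mice nor mice with both copies entered any comparison. The mice are described as 6 months old where this comparison is introduced and as 6 or 8 months old in the methods, and no label gives the age behind a library. The methods and the labels both give 4 het mice, whereas the comparison is introduced with fewer. The question was how much of each arm is bound to the RISC, with which seeds, and whether this differs between ko and het brains.

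miR-132 and miR-212 are made from neighbouring hairpins of the same primary transcript, whose transcription in neurons is switched on by synaptic activity and neurotrophins through the factor CREB. miR-132-3p is known to support dendrite growth and synaptic plasticity. It is also known as a miRNA that is reduced in the brain in Alzheimer's disease.

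The mature sequences are shown first because the 3p arms share their seed, the stretch of bases 2 to 8 from the 5′ end that pairs with target mRNAs. They are RefSeq sequences on the plus strand of chromosome 11 of GRCm38.p6, written 5′ to 3′ with the seed in capitals.
miR-132-3p: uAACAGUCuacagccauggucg
miR-212-3p: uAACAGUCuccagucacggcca
miR-132-5p: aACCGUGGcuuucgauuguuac
miR-212-5p: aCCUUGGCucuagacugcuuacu
No other mature miRNA in RefSeq has the seed of the 3p arms or of either 5p arm. The 3p arms are identical at 17 of 22 positions, including all of the leading 9. Counted from 1 at the 5′ end, with miR-132-3p written first, they differ by A10C, C14U, U17C, U20C and G22A, so that reads of usual length can be told apart by their 3′ portion.

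The hairpins are shown with both arms in capitals, because the ends of reads were placed on them.
Mir132: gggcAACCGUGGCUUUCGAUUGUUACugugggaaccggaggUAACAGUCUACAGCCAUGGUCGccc
Mir212: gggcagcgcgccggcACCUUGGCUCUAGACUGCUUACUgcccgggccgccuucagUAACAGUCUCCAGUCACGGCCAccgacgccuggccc
Mir132 lies at chr11:75173682-75173747 and Mir212 at chr11:75173388-75173478, with 203 bases between them. Both are in intron 1, from 75172598 to 75173977, of the noncoding gene 1700016P03Rik on the same strand. The mature arms are at 75173723 to 75173744 for miR-132-3p, 75173686 to 75173707 for miR-132-5p, 75173443 to 75173464 for miR-212-3p and 75173403 to 75173425 for miR-212-5p.

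The libraries held from 509839 to 19878054 reads, a 39.0-fold range, and the 2 libraries over 5000000 reads were both ko. The level that 3 reads give ran from 0.151 CPM (counts per 1000000 reads) in the deepest library to 5.79 CPM in the shallowest. The deleted gene could not be checked in small RNAs, so genotypes rest on the labels. Brain origin was checked on fixed lists. The 4 neuronal miRNAs summed to 153778 to 196821 CPM in het and 150911 to 252535 CPM in ko, whereas 4 miRNAs of muscle and liver summed to 213 to 321 CPM and 155 to 391 CPM. All 7 epithelial miRNAs were present at a summed 2249 to 8555 CPM in het and 226 to 1794 CPM in ko, and 3 of the 6 tested fell in ko (limma adjusted p under 0.05). Oligodendrocyte miRNAs (2 of 2 present) summed to 8093 to 14385 CPM in het and 4360 to 8591 CPM in ko, and those of red blood cells (3 of 3 present) to 1734 to 3133 CPM and 706 to 2233 CPM, with none past the threshold. Leukocyte miRNAs (4 of 4 present) summed to 2558 to 3991 CPM and 2430 to 4528 CPM, and those of endothelium (2 of 2 present) to 6038 to 11057 CPM and 6112 to 11931 CPM. The 2 miRNAs of choroid plexus, both present, summed to 2382 to 4665 CPM and 2117 to 4483 CPM. Nearly all of this sum was miR-204-5p (limma adjusted p = 0.975), and the scarce miR-211-5p held 0 to 12.4 CPM in het and 8.82 to 47.7 CPM in ko (limma unadjusted p = 0.00861, adjusted p = 0.266). In these bulk samples, fewer cells of a type and less of a miRNA per cell cannot be told apart, and the part of these cell types in the results that follow was not tested.

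miR-132-3p, the arm with the known neuronal functions, was by far the most abundant member. It held 28941, 19332, 22899 and 24949 CPM in het replicates 1 to 4 and 23217, 25493.5, 31573 and 27276 CPM in ko replicates 1 to 4. It ranked 9 of all miRNAs by mean level, and between 7 and 11 in single libraries. The highest value was in ko replicate 3 and the lowest in het replicate 2, and the groups overlapped. The means were 24030.3 ± 4013 CPM in het and 26889.9 ± 3537 CPM in ko (SD, n = 4 each).

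miR-132-5p, the opposite strand of the same hairpin, held 1292, 1612, 1129.8 and 998 CPM in het and 1567, 1461, 1212 and 1222 CPM in ko. Here the highest value was in het replicate 2, the library in which miR-132-3p was lowest. The means were 1258 ± 265 CPM in het and 1365 ± 177 CPM in ko (SD, n = 4 each), and miR-132-5p ranked 86 by mean level.

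miR-212-3p, which has the same seed as miR-132-3p, held 1178, 717, 993 and 606 CPM in het and 686, 736, 483 and 708 CPM in ko. Het replicates 1 and 3 were above all ko libraries, but het replicate 4 was below 3 of them, and the groups overlapped. The means were 873 ± 260 CPM in het and 653 ± 115 CPM in ko (SD, n = 4 each), at rank 119.

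miR-212-5p was the scarcest member, and in het replicate 2 it was close to the level of 3 reads. It held 46.3, 5.50, 32.2 and 22.9 CPM in het and 17.7, 30.8, 14.6 and 46.05 CPM in ko. These values rest on 24, 8, 83 and 61 reads in het and 139, 613, 34 and 47 reads in ko. The 8 reads of het replicate 2 give an exact 95% Poisson interval of 2.38 to 10.8 CPM. This interval covers the counting error of independent reads only, and it lies below the intervals of 6 of the other 7 libraries. The interval of ko replicate 3, from 10.1 to 20.4 CPM, overlaps it. The means were 26.7 ± 17.1 CPM in het and 27.3 ± 14.3 CPM in ko (SD, n = 4 each), at rank 388.

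**Figure D1:**
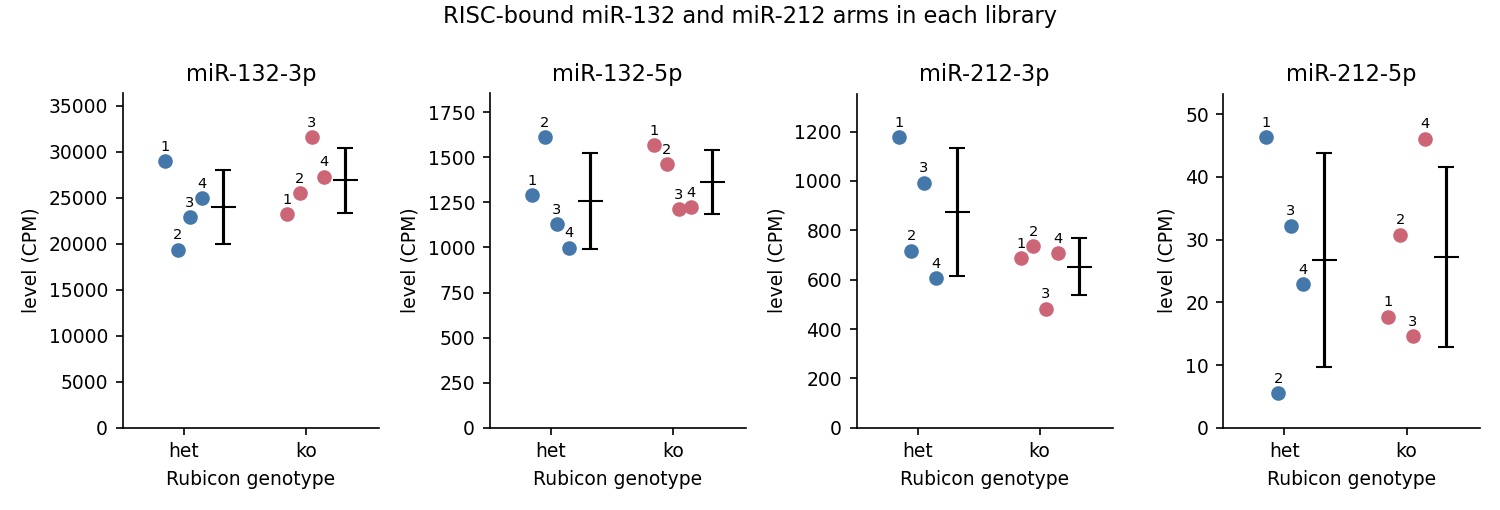
Level in CPM of each member in the het and ko libraries, on linear axes from 0 that differ between panels. Points are single libraries marked with their replicate number, and the bar beside them is the mean ± SD of 4 libraries. The het and ko points overlap in all 4 panels, with miR-132-3p between 19332 and 31573 CPM and miR-212-5p between 5.50 and 46.3 CPM.

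The order of the levels was the same in every library. miR-132-3p made up 92.2% ± 1.77 of the cluster's reads, miR-132-5p 4.88% ± 1.33, miR-212-3p 2.81% ± 0.825 and miR-212-5p 0.0962% ± 0.0481 (SD over 8 libraries). miR-132-5p and miR-212-3p were the closest neighbours. Their ranges over all libraries overlapped, but miR-132-5p was the higher in 8 of 8 libraries. Together the 4 members took from 2.17% to 3.33% of the reads of a library, with 2.62% ± 0.407 in het and 2.89% ± 0.328 in ko (SD, n = 4 each). The spread over the 8 libraries grew as the level fell, with coefficients of variation of 15.01%, 16.5%, 28.8% and 54.2% from the most to the least abundant member. These values take both genotypes together, and for miR-212-5p they include the counting error of as few as 8 reads in a library. Values of different miRNAs are reads of whole molecules of nearly equal length. How efficiently each sequence enters a library was not measured.

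None of the 4 members passed the test between genotypes. The log2 fold change (ko minus het, on the scale of log2(CPM + 1)) was 0.17 for miR-132-3p (SE 0.21, 95% interval -0.28 to 0.62, limma adjusted p = 0.975). It was 0.13 for miR-132-5p (SE 0.25, interval -0.41 to 0.68, limma adjusted p = 0.975). For miR-212-3p it was -0.39 (SE 0.28, interval -0.99 to 0.21, limma adjusted p = 0.837) and for miR-212-5p 0.21 (SE 0.60, interval -1.08 to 1.498, limma adjusted p = 0.975). The sign for miR-212-5p rests on single libraries, with -0.38 without het replicate 2 and -0.08 without ko replicate 4. At these standard errors a change of miR-132-3p above 0.62 on the log2 scale lies outside the interval, whereas for miR-212-5p a change of 1 in either direction lies inside it.

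Among all 463 miRNAs tested, limma called 6, or 1.3%, and 34, or 7.34%, had an unadjusted p under 0.05. No member had an unadjusted p under 0.05 with limma, edgeR or DESeq2. edgeR called 0.864% and DESeq2 1.94% of miRNAs on the recovered reads, again without a member. Groups that do not overlap were found for 3.46% of miRNAs and for 0 of the 4 members. The median log2 fold change of all miRNAs was -0.09 on CPM, 0.06 with edgeR, 0.07 with DESeq2 and 0.13 after centring each library on its median. Against that median, miR-132-3p stood at 0.26 on CPM and at 0.23 with edgeR and with DESeq2, and miR-212-3p at -0.30 on CPM and at -0.34 with edgeR and with DESeq2. miR-132-5p stood at 0.22 on CPM and at 0.20 with edgeR and with DESeq2, whereas miR-212-5p moved from 0.30 on CPM to 0.13 with edgeR and 0.12 with DESeq2.

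**Figure D2:**
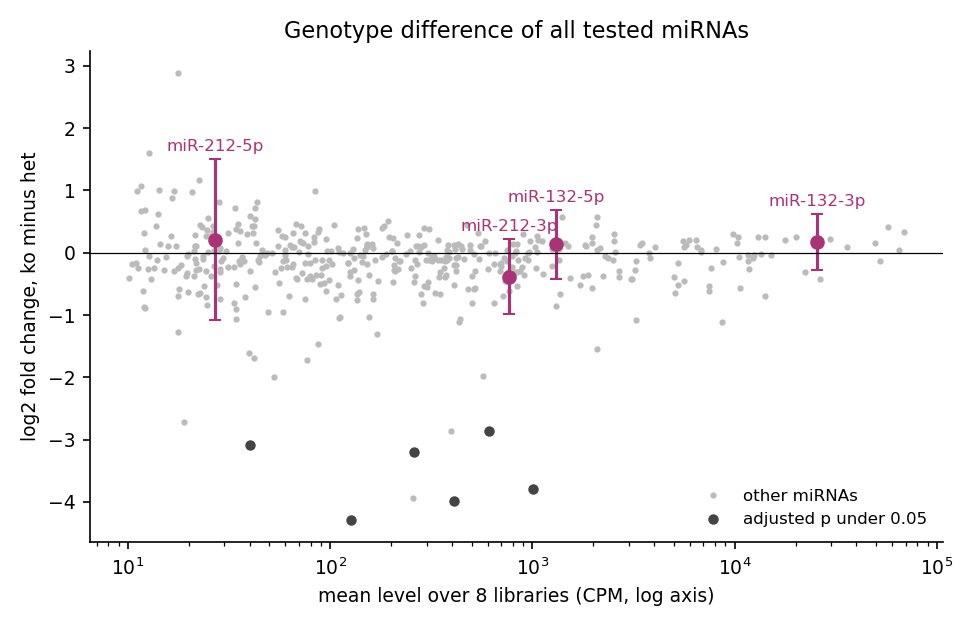
Log2 fold change (ko minus het) against the mean level over 8 libraries (CPM, log axis) for the 463 miRNAs tested, each a point. The 4 members are shown with 95% intervals, all of which cross 0, and the 6 miRNAs past the threshold are dark and all lower in ko.

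The balance between the cluster members was compared within each library, where the scaling cancels. There were 24.6, 26.95, 23.1 and 41.2 reads of miR-132-3p per read of miR-212-3p in het and 33.8, 34.7, 65.3 and 38.5 in ko. All ko libraries lay above het replicates 1 to 3, but het replicate 4 lay within the ko range. The mean ratio was 28.9 ± 8.31 in het and 43.1 ± 14.97 in ko (SD, n = 4 each). On the log2 scale the difference was 0.56 (exact two-sided permutation p = 0.114, adjusted p = 0.419 over 11 measures). It was 0.34 without ko replicate 3, 0.74 without het replicate 4 and 0.83 without the 2 ko libraries over 5000000 reads. With 70 possible splits of 8 libraries the smallest p is 0.0286. The ratio of miR-132-5p to miR-212-5p ran from 26.5 to 293 and differed by -0.08 on the log2 scale (exact permutation p = 0.943, adjusted p = 0.971). The value of 293 is het replicate 2 with its 8 reads of miR-212-5p. The difference was 0.64 without this library and 0.26 without ko replicate 4, so its sign rests on single libraries.

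In both hairpins the 3p arm was the RISC-bound strand in the main. miR-132-3p exceeded miR-132-5p 20.04 ± 4.93-fold over the 8 libraries, with single libraries from 11.99 to 26.05. miR-212-3p exceeded miR-212-5p 15.4-fold to 130-fold, where the top value is het replicate 2 with its 8 reads of the 5p arm. Of 138 hairpins with both arms measured, 60 had more reads of the 3p arm, and the median distance of the arms from equality was 2.93 on the log2 scale. The arm balance (log2 of 5p over 3p) averaged -4.28 for miR-132 and -4.95 for miR-212, at places 45 and 30 of 138 by size.

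The arm balance of miR-132 was -4.26 ± 0.47 in het and -4.30 ± 0.36 in ko (SD, n = 4 each), a difference of -0.04 (limma adjusted p = 0.992, SE 0.37). That of miR-212 was -5.25 ± 1.03 in het and -4.65 ± 0.56 in ko (SD, n = 4 each), a difference of 0.60 (SE 0.50, interval -0.48 to 1.68, limma adjusted p = 0.855). Without het replicate 2 the difference for miR-212 was 0.08. Over all hairpins limma called 0, or 0%, and 5.8% had an unadjusted p under 0.05. With a replicate block 2 hairpins were called, and 1 was called without het replicate 1 or without ko replicate 4, in no case miR-132 or miR-212. Neither miR-132 nor miR-212 had an unadjusted p under 0.05. Arm balance was not tested with edgeR or DESeq2.

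**Figure D3:**
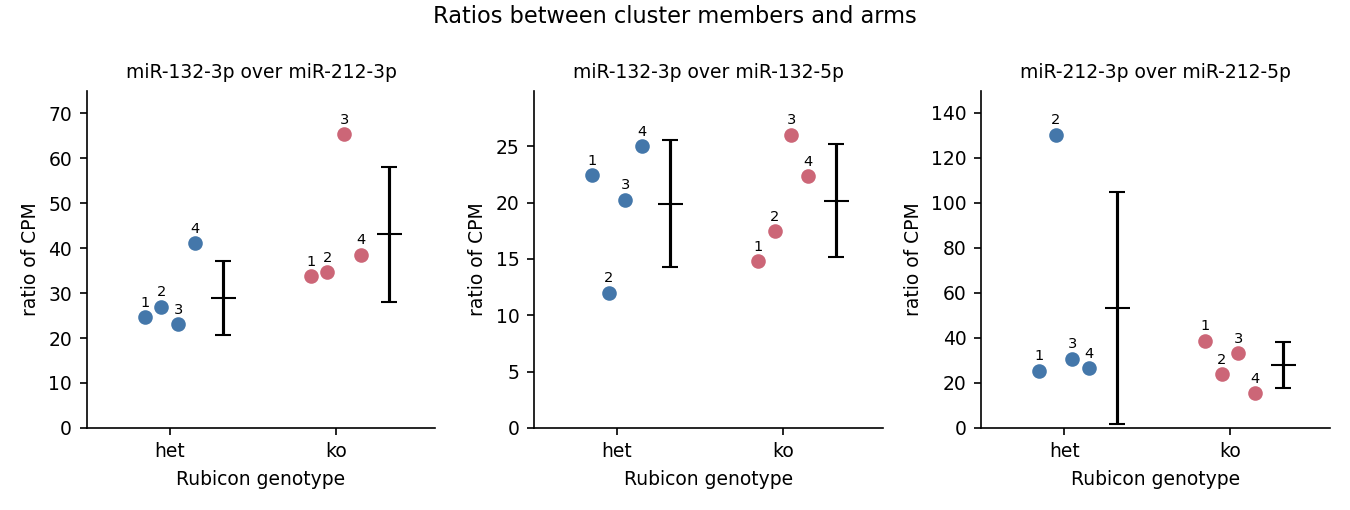
Ratio of CPM between members in each library, on linear axes from 0. Points are single libraries marked with their replicate number, and the bar is the mean ± SD of 4 libraries. The ratio of miR-132-3p to miR-212-3p runs from 23.1 to 41.2 in het and from 33.8 to 65.3 in ko, and het replicate 2 stands at 130 in the ratio of the miR-212 arms.

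Each read was also assigned by its 6mer seed (positions 2 to 7), to which a seed viability belongs, a score for how well cells survive an siRNA with that seed, averaged over 3 mouse cell lines. Low viability marks seeds that are toxic through Death Induced by Survival gene Elimination (DISE). The shared 3p seed has a viability of 63.1, higher than 50.1% of the 3427 seeds in the data, whose median is 63. It was the seed of 24740 ± 3591 CPM (SD over 8 libraries), or 2.47% of all reads, and ranked 9 among all seeds. miR-132-3p supplied 96.0% of these reads and miR-212-3p 2.96%. A further 1.04% had no miRNA name, and 0.0379% were reads named miR-128-3p.

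In single libraries the shared seed held 28374, 18899, 22482 and 24151 CPM in het and 22542, 24842.5, 30199.7 and 26431 CPM in ko. The values followed those of miR-132-3p and the groups overlapped. The log2 fold change was 0.15 (SE 0.21, interval -0.30 to 0.61, limma adjusted p = 0.983). Leaving out 1 library gave 0.06 (without het replicate 2) to 0.25 (without het replicate 1). Of the 990 seeds tested, limma called 0.303%, and 5.76% had an unadjusted p under 0.05. The 3 seeds called became 0 without het replicate 2 and 7 without ko replicate 3, and the shared seed was not among those called in any of these fits.

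The 5′ end of a read sets its seed, so the ends were placed on the hairpins. For miR-132-3p, 93.1% ± 0.226 of reads began at the RefSeq start, 4.39% ± 0.165 began 1 nt and 1.25% ± 0.116 began 2 nt downstream (SD over 8 libraries). The seed of the reads that begin 1 nt downstream has a viability of 29.1, and these reads of miR-132-3p made up 98.2% of all reads with that seed. That seed was thus present at 1138 CPM, beside 1312 CPM for the whole of miR-132-5p. The seed of those that begin 2 nt downstream has a viability of 40.2.

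miR-132-5p differed from its RefSeq entry. Its most abundant read starts 1 nt downstream of the annotated 5′ end and ends 1 nt beyond the annotated 3′ end, and the next 2 keep the annotated start. The reads are given in DNA letters as in the data, with bases 2 to 8 in capitals.
miR-132-5p read 1: aCCGTGGCtttcgattgttact
miR-132-5p read 2: aACCGTGGctttcgattgtta
miR-132-5p read 3: aACCGTGGctttcgattgtt
Read 1 made up 56.1% ± 3.24 of miR-132-5p, read 2 11.3% ± 1.63 and read 3 9.77% ± 1.95 (SD over 8 libraries). Read 1 held 697, 911, 669 and 508 CPM in het and 942, 771, 697 and 706 CPM in ko, with a log2 fold change of 0.18 (limma adjusted p = 0.973, SE 0.28).

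The shifted start was found in all libraries. The share of miR-132-5p reads that began 1 nt downstream was 71.4%, 74.7%, 71.0% and 69.0% in het and 72.6%, 68.0%, 71.4% and 68.4% in ko, and the share that began at the annotated start was 27.2% ± 2.12 (SD over 8 libraries). The groups overlapped. Reads with the downstream start carry a 6mer seed with a viability of 45.2 in place of 59.8. By seed, the downstream form took 71.1% ± 2.29 and the annotated form 27.4% ± 2.12 of miR-132-5p reads, shares that also count reads not placed on the hairpin.

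miR-212-3p mostly kept its annotated start. The share that began there was 97.7%, 97.7%, 96.2% and 95.7% in het and 95.0%, 95.2%, 93.2% and 95.7% in ko, with het replicate 4 and ko replicate 4 almost equal. The most frequent other start was 1 nt upstream, with 2.71% ± 0.999 of reads (SD over 8 libraries), and its seed has a viability of 73.7. All starts other than the annotated together made up 1.97%, 2.21%, 3.72% and 3.47% in het and 4.41%, 4.22%, 6.40% and 3.596% in ko.

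The lowest and the next lowest shares were het and the highest was ko replicate 3, but het replicate 3 exceeded ko replicate 4. The means were 2.84% ± 0.881 in het and 4.66% ± 1.21 in ko (SD, n = 4 each), and the difference of 1.82 points did not pass (exact permutation p = 0.0571, adjusted p = 0.314). The 95% Wilson interval was from 1.13% to 3.41% in het replicate 1, with 12 such reads of 610, and from 5.11% to 7.98% in ko replicate 3, with 72 of 1125. The difference was 1.24 points without ko replicate 3, 1.53 to 2.17 points without any other single library, and 2.16 points without the 2 ko libraries over 5000000 reads. Rare sequences had been removed by their reads over all libraries together, so leaving out the deep ko libraries does not undo that filter. Its part in this share was not tested. No miR-212-3p read with a shifted start was present in all 8 libraries, so the share cannot be computed from such reads alone.

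For the other members the share of shifted starts was 6.16% ± 0.178 in het and 6.01% ± 0.189 in ko for miR-132-3p (SD, n = 4 each, exact permutation p = 0.371, adjusted p = 0.908). It was 72.1% ± 2.46 in het and 71.0% ± 2.23 in ko for miR-132-5p (exact permutation p = 0.571, adjusted p = 0.908). With 1 library left out, the difference (ko minus het) ran from -2.08 to -0.0771 points for miR-132-5p and from -0.218 to -0.0506 points for miR-132-3p. miR-212-5p had too few reads for this measure, and 95.5% ± 6.11 of its reads had the annotated start, whose seed has a viability of 49.4. That seed is also carried by reads named miR-9-5p, at 68.3 CPM, and miR-212-5p supplied 26.6% of the reads with it.

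**Figure D4:**
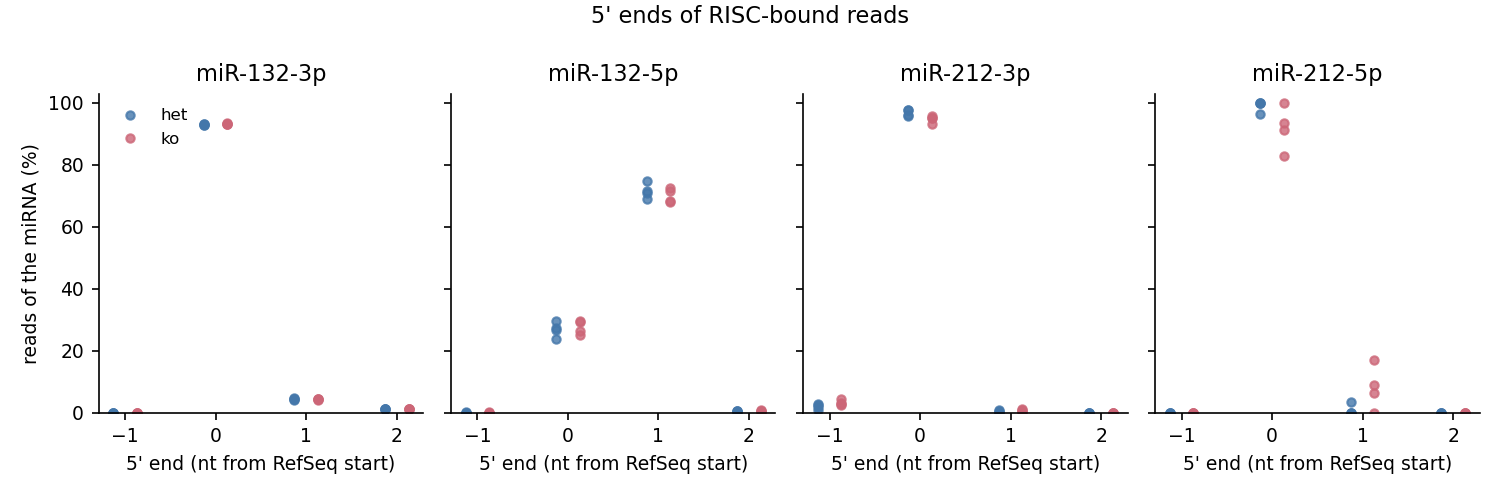
Share of reads of each member (in %) by the position of the 5′ end, in nt from the RefSeq start, where 1 means 1 nt downstream. Each point is a library. The miR-132-5p reads that begin 1 nt downstream lie between 68.0% and 74.7%, whereas the 3p arms begin at position 0 in 92.8% to 97.7% of reads.

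The 3p arms share the seed but differed in the form of the 3′ end. The 3 most abundant reads of each 3p arm were the same forms, namely the annotated molecule, that molecule shortened by 1 base and that molecule with an added T that the hairpin does not encode.
miR-132-3p read 1: tAACAGTCtacagccatggtcg
miR-132-3p read 2: tAACAGTCtacagccatggtcgt
miR-132-3p read 3: tAACAGTCtacagccatggtc
miR-212-3p read 1: tAACAGTCtccagtcacggcca
miR-212-3p read 2: tAACAGTCtccagtcacggcc
miR-212-3p read 3: tAACAGTCtccagtcacggccat
The annotated molecule made up 70.7% ± 2.54 of miR-132-3p but 29.5% ± 5.43 of miR-212-3p (SD over 8 libraries). The form with the added T made up 8.27% ± 0.913 and 8.504% ± 3.003, and the shortened form 5.11% ± 0.997 and 11.7% ± 1.38.

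The annotated molecule of miR-132-3p held 20412, 13027, 16229 and 18190.0 CPM in het and 15405, 18372, 23115 and 19669 CPM in ko. That of miR-212-3p held 423, 199, 396 and 146 CPM in het and 179, 207, 131.9 and 189 CPM in ko. The latter groups overlapped, with het replicates 1 and 3 far above the other 6 libraries. The log2 fold changes were 0.18 (SE 0.23) and -0.60 (SE 0.37), both with a limma adjusted p of 0.973.

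Reads whose 3′ end carries 1 to 3 bases not encoded by the hairpin were 17.4% ± 1.58 of miR-132-3p, 34.8% ± 4.76 of miR-212-3p and 2.74% ± 0.363 of miR-132-5p (SD over 8 libraries). The ranges of the 3 arms did not overlap, from 15.7% to 20.7%, from 29.1% to 41.4% and from 2.16% to 3.20%. Tails of U alone were 10.5% ± 1.13 of miR-132-3p reads and 17.0% ± 4.39 of miR-212-3p reads, and tails of A alone 6.05% ± 0.705 and 12.7% ± 2.57. An added base that happens to equal the next base of the hairpin cannot be told from a longer cut.

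The tailed shares of het and ko overlapped for each of these arms. The tailed share of miR-132-3p was 17.2% ± 1.16 in het and 17.7% ± 2.07 in ko (SD, n = 4 each, exact permutation p = 0.743, adjusted p = 0.908). For miR-212-3p it was 34.0% ± 5.63 and 35.6% ± 4.42 (exact permutation p = 0.657, adjusted p = 0.908), and for miR-132-5p 2.73% ± 0.391 and 2.75% ± 0.393 (exact permutation p = 0.971, adjusted p = 0.971). The widest 95% Wilson interval of a single library's tailed share was 7.60 points for miR-212-3p and 1.20 points for miR-132-3p.

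Read length also differed between the arms. Reads of 22 nt were 74.4% ± 2.43 of miR-132-3p, 60.5% ± 2.46 of miR-132-5p and 33.9% ± 5.35 of miR-212-3p, whereas reads of 23 nt were 12.8% ± 1.28, 1.41% ± 0.178 and 21.3% ± 6.88 (SD over 8 libraries). Reads of miR-132-3p averaged 21.97 ± 0.0204 nt (het) and 22.002 ± 0.0126 nt (ko) in length (SD, n = 4 each, exact permutation p = 0.0571, adjusted p = 0.314). This is a difference of 0.0282 nt. Those of miR-132-5p and miR-212-3p differed by 0.0119 nt and 0.0395 nt, each with an exact permutation p of 0.714 and an adjusted p of 0.908.

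**Figure D5:**
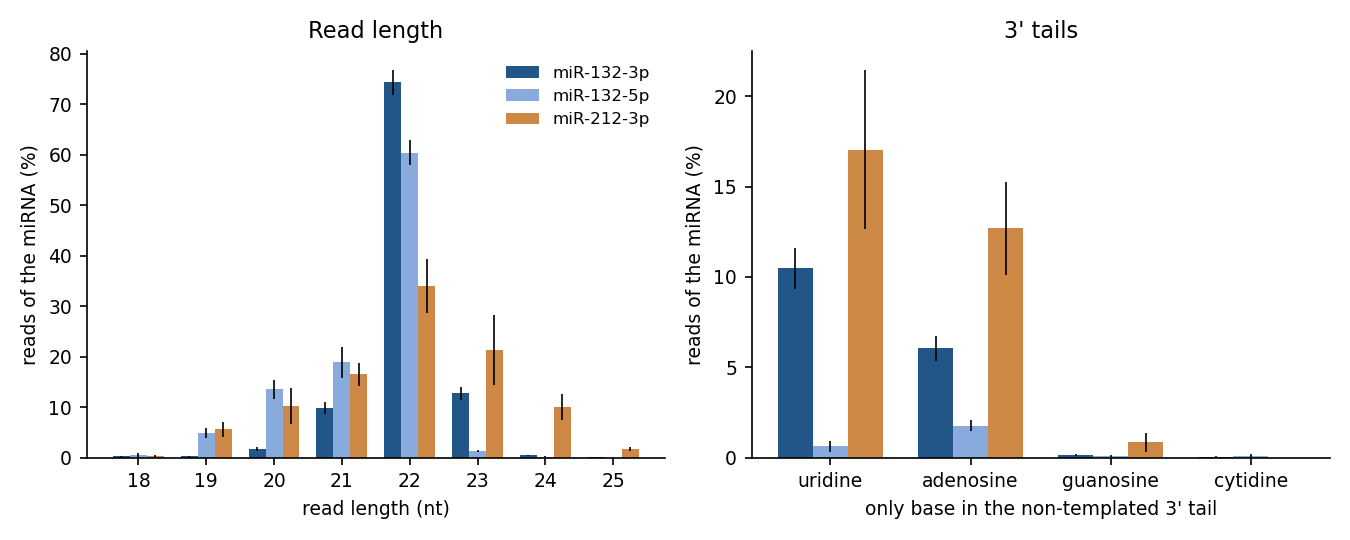
Left, share of reads (in %) by read length in nt. Right, share of reads whose non-templated 3′ tail holds a single kind of base. Bars are means over 8 libraries and error bars are SD, for the 3 members with at least 100 reads in every library. miR-212-3p has 17.0% uridine and 12.7% adenosine tails against 10.5% and 6.05% in miR-132-3p.

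For the single reads, 59 of the 481 had a mean of at least 10 CPM and could be tested, and they held 98.1% of the members' CPM. limma called 0 of them and 1 had an unadjusted p under 0.05. edgeR and DESeq2 also called 0, with 1 and 2 at an unadjusted p under 0.05. Over all 3299 reads tested, limma called 0.485%, and 5.3% had an unadjusted p under 0.05. The 10 tested reads of miR-212-3p all had a negative log2 fold change, with a median of -0.20 against -0.02 for all reads tested, and of the 39 of miR-132-3p 25 had a positive and 14 a negative value. The reads of a miRNA come from the same libraries and are not independent.

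The read with an unadjusted p under 0.05 is a tailed miR-132-3p, chosen here by its value.
miR-132-3p tailed read: tAACAGTCtacagccatggtat
It lacks the last 2 bases of the annotated molecule and carries 2 others. It held 25.1, 11.004, 8.93 and 17.3 CPM in het and 1.40, 5.17, 6.02 and 7.84 CPM in ko, so that the groups did not overlap. Its log2 fold change was -1.49 (limma adjusted p = 0.931, SE 0.68).

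The levels of the members were compared across the 8 libraries, and no relation passed the test. For miR-132-3p and miR-212-3p, Pearson's r was -0.16 (exact permutation p = 0.712) and Spearman's rho -0.19 (exact permutation p = 0.665), and r was 0.33 without the 2 libraries farthest from the median of miR-132-3p. For miR-132-3p and miR-132-5p, r was -0.43 (exact permutation p = 0.285) and rho -0.29 (exact permutation p = 0.501), with r -0.03 without 2 libraries. Over all 6 pairs of members r ran from -0.46 to 0.55, and no pair had an adjusted p under 0.427 for r or 0.665 for rho. Without the 2 libraries farthest from the median of the first-named member, r ran from -0.28 (miR-132-5p and miR-212-5p) to 0.77 (miR-132-3p and miR-212-5p). With the genotype means removed, r ran from -0.63 (miR-132-3p and miR-132-5p) to 0.65 (miR-212-3p and miR-212-5p). These values carry no p. All levels are shares of the same libraries.

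The 5 miRNAs whose log2(CPM + 1) was most like that of miR-132-3p over the 8 libraries, of 459 compared, were miR-181a-1-3p (r = 0.92), miR-222-5p (r = 0.90), miR-361-3p (r = 0.86), miR-331-5p (r = 0.83) and miR-128-1-5p (r = 0.81). They are given as a description, since the highest of many values over 8 libraries were picked. None passed the test between genotypes, with log2 fold changes from 0.12 to 0.56 and limma adjusted p from 0.839 to 0.975.

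Other miRNAs linked to neuronal activity and plasticity were examined as a list of 21, all of which could be tested. limma called 0 of 21 and 2 had an unadjusted p under 0.05, beside 1.3% and 7.34% of all miRNAs. The median log2 fold change was -0.29, with 6 positive and 15 negative values, against -0.09 with 188 positive and 275 negative for all miRNAs.

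The smallest p in the downward direction belonged to miR-219a-5p, a miRNA of oligodendrocyte maturation that also responds to NMDA receptor signalling. It held 2655, 7822, 3492 and 3639 CPM in het and 1470.05, 3029.7, 1064 and 2790.4 CPM in ko, with a log2 fold change of -1.08 (limma adjusted p = 0.495, SE 0.40). miR-138-5p, which limits the size of dendritic spines, held 10097, 9788, 7444 and 8653 CPM in het and 5265, 8096, 5334 and 5088 CPM in ko, with a log2 fold change of -0.61 (limma adjusted p = 0.529, SE 0.24). For miR-219a-5p 2 ko libraries, and for miR-138-5p 1, lay above the lowest het library. In the upward direction miR-146a-5p, a regulator of innate immune signalling, had a log2 fold change of 0.44 (limma adjusted p = 0.754, SE 0.25). miR-9-5p, a neural miRNA, had 0.41 (limma adjusted p = 0.796, SE 0.25).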

How the data were processed

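RISC-bound RNA of 8 brain samples, 4 per genotype by the sample titles, was captured with a GW182 peptide, size-selected on a gel and sequenced. Per the study's methods, the authors' SPOROS pipeline listed distinct sequences, named them by BLAST against mouse small RNAs, and removed artificial sequences and rare ones. The CPM were scaled by the authors to 1000000 reads per library. Seed viability was deposited as a score, averaged by the authors over 3 mouse cell lines in an earlier screen. No genome build is stated for the naming, and some annotation entries of the table carry the tag mouse_mm9. The scarcest sequences had 8 reads in total, a limit that a form found in a shallow library alone rarely reaches.

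CPM were summed per name. Dividing by the value of 1 read gave whole reads for 100% of values (tolerance 0.1 read), which set depth and intervals. Reads carry no molecular identifiers, and the study's methods amplify the cDNA by PCR. Copies of a molecule are thus counted as separate reads, so intervals cover the counting error of independent reads only and may be too narrow. Both genotypes were fitted with limma 3.58.1 in R 4.3.3 (lmFit and robust eBayes with a trend), using log2(CPM + 1) for features with a mean of at least 10 CPM, no covariate, with Benjamini-Hochberg adjustment over all features at a threshold of 0.05. edgeR 4.0.16 (quasi-likelihood, TMM) and DESeq2 1.42.0 were alternatives on recovered reads. Per-library measures were compared by exact two-sided permutation of the difference of means, adjusted over 11 measures.

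Reads were placed on the RefSeq hairpins (GRCm38.p6, 4 of 4 members matched) by at least 12 templated bases, with at most 3 further bases taken as a tail. The host gene came from GENCODE M21. The named reads are the 3 most abundant of each member, and the other named miRNAs are the 5 most like miR-132-3p and, of the activity list, the 2 with the smallest p in each direction. Members and lists were chosen with earlier results of these data known. Python 3.11.15, numpy 2.4.6, scipy 1.17.1, pandas 2.3.3 and matplotlib 3.10.9 were used, and the code was tested on simulated data. Alternatives were a pseudocount of 0.1 or 10, a minimum mean of 1 or 100 CPM, centring on the median, the replicate number as a block, leaving out libraries, and subsets of reads.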

Additional observations from a re-analysis of the deposited data

Results flagged for a closer look

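Among 36 groups of 4 libraries, 3 held a library far from the other 3, where chance alone gives about 1.8. The arm balance of miR-212 (log2 of 5p over 3p) was -6.79 in het replicate 2 against -4.90 in the nearest het library, and it rests on 8 reads of miR-212-5p. Without this library the difference between ko and het was 0.08, against 0.60 with it, and both missed the limma threshold. The share of miR-132-3p reads with a shifted 5′ end was 5.73% in ko replicate 2, the deepest library, against 6.09% in the nearest ko library. The share of miR-132-5p reads with a non-templated 3′ end was 2.16% in ko replicate 3 against 2.88% in the nearest ko library.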

How the results depend on the processing

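Of 246 alternatives over the 18 differences between ko and het, 221 kept the direction and 25 turned it, and the number of reads called stayed 0 in its 17 alternatives. A minimum mean of 1 or 100 CPM and the replicate block, including its sign flips, leave an estimate unchanged. They kept the direction by construction and say nothing about its stability. No difference passed its threshold, but for the 11 permutation measures this says nothing about stability: the smallest p was 0.0286 with 8 libraries, 0.0667 without the large ones and 0.125 for sign flips, and a lone 0.0286 adjusts to 0.314. Precision was limited by 4 mice per genotype and, for miR-212-5p, by as few as 8 reads in a library. Where a direction turned, the cause was not tested. For the log2 ratio of miR-132-5p to miR-212-5p the value was 0.10 with reads present in all 8 libraries and 0.0413 with a pseudocount of 10. Without the libraries over 5000000 reads, the log2 fold change of miR-132-5p was -0.0245, and the tailed shares of miR-132-3p and miR-132-5p differed by -0.461 and -0.167 points.

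Leaving out 1 library in turn gave -0.42 to 0.64 for the log2 ratio of miR-132-5p to miR-212-5p (0.64 without het replicate 2 and 0.26 without ko replicate 4), -0.17 to 0.19 for the miR-132 arm balance and -0.38 to 0.57 for miR-212-5p (-0.38 without het replicate 2 and -0.08 without ko replicate 4). It gave -0.542 to 0.942 points for the tailed share of miR-132-3p, -0.147 to 0.211 for that of miR-132-5p and -0.340 to 3.92 for that of miR-212-3p, and -0.0101 to 0.0318 nt and -0.0591 to 0.101 nt for the mean lengths of miR-132-5p and miR-212-3p. The log2 fold change stayed positive for miR-132-3p (0.07 to 0.26) and, over these, for miR-132-5p (0.03 without het replicate 4 to 0.26 without het replicate 2) and negative for miR-212-3p (-0.55 to -0.23).

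Same-numbered het and ko libraries did not deviate together in all 4 pairs (correlations 0.04, 0.29, -0.18 and 0.25). The labels do not say whether the numbers pair the mice, and these 4 values cannot decide it. In the fit with a replicate block, miR-212-3p had a log2 fold change of -0.39 with an adjusted p of 0.861, and 10 of all miRNAs were called in place of 6. The share of shifted starts of miR-212-3p could not be computed from reads present in all libraries.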

Other observations

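Some reads that match the hairpins carry no miRNA name in the data. On mir-132 there were 238 such sequences with 421 ± 70.5 CPM (SD over 8 libraries), of which 118 have the shared 3p seed and 251 ± 44.6 CPM, and 21 match the hairpin exactly with 58.0 ± 17.4 CPM. Named miR-132-3p held 25460.1 CPM. On mir-212 there were 14 such sequences with 4.84 ± 2.96 CPM. The unnamed reads of mir-132 held 340 to 425 CPM in het and 389 to 561 CPM in ko, and the groups overlapped.

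Of 77 forms of the members (5′ ends, 3′ ends, tails, lengths and classes of reads) seen in all 8 libraries, 4, or 5.19%, had groups that did not overlap, beside 3.46% of miRNAs, and they were picked here by their values. They were the share of miR-132-3p reads that begin 4 nt downstream (0.356% ± 0.0155 in het and 0.208% ± 0.0790 in ko), its reads of 18 nt (0.336% ± 0.0399 and 0.193% ± 0.0919) and of 19 nt (0.395% ± 0.128 and 0.285% ± 0.0252), and the annotated start of miR-212-3p (96.8% ± 1.02 and 94.8% ± 1.11, all SD with n = 4 each). For this start het replicate 4 at 95.73% and ko replicate 4 at 95.71% were almost equal. A single 18 nt sequence held 87.9% of the reads that begin 4 nt downstream, so the former and the 18 nt reads are largely the same molecules. These forms were not tested, but the share of all shifted starts of miR-212-3p was, with overlapping groups (exact permutation p = 0.0571, adjusted p = 0.314).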
